A study of Mus musculus with 24 samples.

Results

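Oxidative phosphorylation was followed at the transcript level through every row of a mouse kidney RNA-seq table whose gene symbol begins with Nduf, Uqcr, Cox4 to Cox8, Atp5, mt-Nd, mt-Co, mt-Cytb or mt-Atp, or is Sdha, Sdhb, Sdhc or Sdhd. That name rule picked 107 of the 28450 rows and uses symbols only. Of these, 94 are encoded in the nucleus and 13 in the mitochondrial genome. A filter of at least 1 FPKM (fragments per kilobase of transcript, scaled to the library's mapped fragments) in at least 6 of the 24 libraries kept 103 members, 90 nuclear and all 13 mitochondrial, among 13020 rows in all. The 4 that stayed out were Cox4i2, Cox7b2, Cox8c and a second row named Atp5o, the last of which was listed at 0 like Cox8c.

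The respiratory chain passes electrons from NADH through complex I, and from succinate through complex II, to complex III and complex IV, which reduces oxygen. The proton gradient built by complexes I, III and IV drives the ATP synthase, complex V. The mitochondrial genome encodes hydrophobic core subunits of complexes I, III, IV and V, the nucleus encodes all the rest, and complex II is wholly nuclear, so assembly needs products of both genomes. In the kidney the proximal tubule relies on this pathway to power solute reabsorption.

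Whole kidneys came from C57BL/6 mice, either wild type or labelled NLPR3-/-, the knockout of Nlrp3, which encodes the sensor of the NLRP3 inflammasome. Mice of each genotype received saline or glyoxylate (Gly, 75 mg/kg/d in 200 µl, into the peritoneum, from day 1 to day 7), a precursor of oxalate used to produce calcium oxalate crystals in the kidney, and kidneys were taken after 7 days. There were 4 groups of 6 libraries each: wild-type saline, wild-type Gly, knockout saline and knockout Gly. The labels name no age, no sex and no way in which the Nlrp3 allele was made. Since each library holds a whole kidney, fewer cells of a type and less RNA per cell cannot be told apart. The libraries are counted as replicates because they are labelled as separate samples. The p-values set a difference between group means against the spread between libraries within groups, shared over the groups in the fit.

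Nlrp3 itself lay at 0.0397 to 0.0886 FPKM in wild-type saline, 0.361 to 0.896 in wild-type Gly, 0 to 0.182 in knockout saline and 0.119 to 0.144 in knockout Gly. Every knockout Gly library was below every wild-type Gly library but above every wild-type saline library. The saline groups overlapped near 0, so under saline the transcript does not check the genotype labels. Whether the gap under Gly comes from the allele or from the cells present was not tested. Tested without a filter, the knockout differed from wild type by -0.47 ± 0.06 (SE, limma adjusted p = 4.57e-05) on the log2 scale under Gly. In 5 knockout saline libraries (1, 2, 3, 5 and 6) the Y-linked Ddx3y was under 1 FPKM, whereas all the other libraries had 5.14 FPKM or more. Whether those 5 animals were female was not tested. All knockout Gly libraries had Ddx3y of 8.74 FPKM or more. Between these 5 libraries and knockout Gly, an effect of Gly and one of the trait behind low Ddx3y cannot be told apart. Counts of calls that use knockout saline are therefore also given without those 5 libraries for the members and, in the Gly comparison, for lists of other genes. Wild-type Gly library 1 stood apart as well: ribosomal protein genes took 9.20% of its FPKM against 2.40 to 2.83% in wild-type saline. The remaining wild-type Gly libraries lay between 4.95% and 5.96%.

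The mitochondrially encoded part of the pathway was lower in the Gly group of both genotypes, and its summed level was lower relative to the nuclear part. In the knockout Gly was not the only difference, since most saline libraries were low in Ddx3y and no Gly library was. The 13 mitochondrial transcripts summed to 130122, 139275 and 181257 FPKM (lowest, median and highest of 6 libraries, the order used throughout) in wild-type saline and 72895, 91405 and 105471 in wild-type Gly. In the knockout the sums were 141095, 145702 and 167957 FPKM under saline and 99101, 112395 and 117000.0 under Gly. All Gly libraries lay below all saline libraries of their genotype. Per complex, the wild-type sums were 47322, 52589 and 65021 FPKM under saline and 22198, 30399 and 33927 under Gly for the 7 subunits of complex I, and 43326, 47437 and 63334 against 30251, 33892 and 41842 for the 3 of complex IV, neither with overlap. These transcripts made up 26.9 to 34.3% of a library's summed FPKM in wild-type saline, 13.5 to 23.0% in wild-type Gly, 28.6 to 32.7% in knockout saline and 21.8 to 24.7% in knockout Gly.

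The raw FPKM sums of the 90 nuclear members overlapped between groups. They summed to 14203, 15290.5 and 16174 FPKM in wild-type saline, 12599.9, 14454 and 25693 in wild-type Gly, 14838, 16152 and 17451 in knockout saline and 14128, 15231 and 15737 in knockout Gly. The highest value belonged to wild-type Gly library 1. Relative to the FPKM of all genes outside the mitochondrial genome, the nuclear sum was lower in every knockout Gly library than in every knockout saline library, with a ratio of means of 0.902. Raw knockout sums also lay lower under Gly without overlap for complex II (ratio of means 0.855). The same held for the core subunits of complex I (0.880), complex III (0.844) and F1 (0.885). In wild type the relative nuclear sum had a ratio of 0.973, with overlap through Gly libraries 1 and 5. The raw wild-type ratios were 0.823, 0.906, 0.812 and 0.889 in the same order, with overlap only through Gly library 1. Of the knockout saline libraries in these sums, 5 were low in Ddx3y. By complex, the nuclear sums in wild type were 3243, 3609 and 3761 FPKM under saline and 2976, 3424 and 6512 under Gly for complex I, and 719, 765 and 799.9 and 565, 606 and 788 for complex II. Apart from library 1, whose complex II sum was 788, every wild-type Gly library lay below the saline range of complex II, while for complex I the groups overlapped among the other libraries too. The ratio of the mitochondrial to the nuclear sum was 8.05, 8.97 and 12.1 in wild-type saline and 2.84, 6.35 and 6.92 in wild-type Gly. For the knockout it was 8.72, 9.41 and 9.85 under saline and 6.44, 7.40 and 8.01 under Gly. Within each genotype the Gly ratios did not overlap the saline ratios, and the 2 genotypes overlapped under saline and under Gly. The lowest of all ratios, in wild-type Gly library 1, combined that library's high nuclear sum with the lowest mitochondrial sum of its group.

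**Figure D1:**
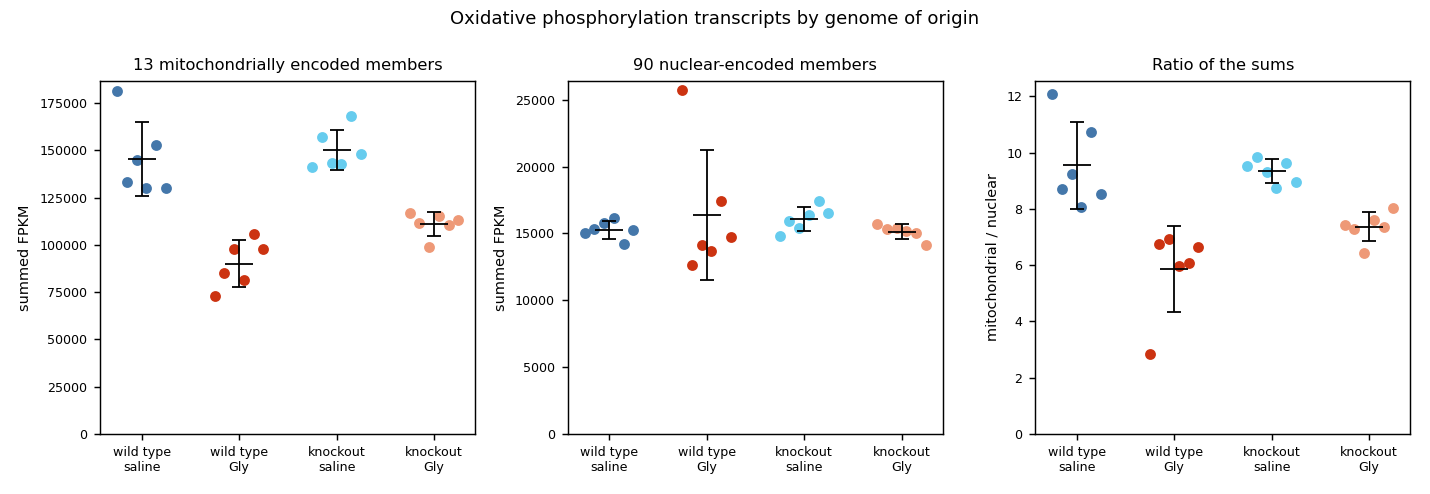
Summed FPKM of the 13 mitochondrially encoded members (left), of the 90 nuclear members past the filter (middle) and the ratio of these sums (right), with 1 point per library, the mean as a bar and 1 SD as whiskers (6 libraries per group). Every Gly library lies below the saline libraries of its genotype in the mitochondrial sum and in the ratio, and wild-type Gly library 1 is the high point of the nuclear sum.

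Gly was compared with saline in wild type first. Of the 13 mitochondrially encoded transcripts 12 fell (limma on log2(FPKM + 1), Benjamini-Hochberg adjusted p under 0.05 over all 13020 features), and the median log2 change was -0.75. Two-sided tests were used, and ± after a log2 value is its SE. Among all features tested 13.3% were called lower and 50.2% higher, with a median of 0.26. Changes of the 7 complex I subunits ran from -1.42 to -0.33, with a median of -0.90, against -0.61 to -0.40 for the 3 subunits of complex IV, and 10 of the 13 had no overlap between groups, as had 7.6% of all features in the lower direction.

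The largest mitochondrially encoded complex I subunit, mt-Nd5, part of the proton-pumping membrane arm, was at 6449, 7001 and 9181 FPKM under saline and 1884, 3809 and 4797 FPKM under Gly. All Gly libraries were below the saline range, and the log2 change was -1.04 ± 0.16 (SE, adjusted p = 3.34e-06). Another subunit of that arm, mt-Nd2, was at 8918, 10144 and 12460.0 FPKM under saline and 3729.9, 5289 and 6768 FPKM under Gly. The groups were again apart, with a log2 change of -1.02 ± 0.13 (SE, adjusted p = 2.21e-07). For mt-Nd4, also a pump subunit, the values were 8090.1, 8867 and 11399 FPKM under saline and 3373, 5164 and 6122 FPKM under Gly. It fell by 0.90 on the log2 scale, and mt-Nd1, at the junction of the membrane and matrix arms, fell by 0.77, both without overlap between groups.

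The short transcripts varied more. The small membrane-arm subunit mt-Nd4l was at 6721, 7554 and 8540.4 FPKM under saline and 534, 3874 and 4735 FPKM under Gly, and its lowest value, 534 FPKM, belonged to library 1. Its log2 change of -1.42 ± 0.33 (SE, adjusted p = 0.000604) became -0.94 ± 0.11 (SE, adjusted p = 1.66e-07) without that library. For mt-Nd3, the member that was not called, the values were 1427, 1817 and 2263 FPKM under saline and 916, 1278 and 2560.2 FPKM under Gly. The groups overlapped because Gly libraries 1 and 5 were at 2150.1 and 2560.2 FPKM, and the log2 change was -0.33 ± 0.20 (SE, adjusted p = 0.163). The genes mt-Nd4l and mt-Nd4 overlap in the genome, as do mt-Atp8 and mt-Atp6, so reads can be shared within each pair, and mt-Nd6, which fell by 0.63 on the log2 scale, lies on the opposite strand to the rest, and whether the counting used strand is not given.

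The single mitochondrial subunit of complex III, cytochrome b (mt-Cytb), was at 14492, 15067 and 18843 FPKM under saline and 6729, 9654 and 11386 FPKM under Gly. No Gly library reached the saline range, and the log2 change was -0.75 ± 0.13 (SE, adjusted p = 3.13e-05). The catalytic subunit of complex IV, mt-Co1, which was the most abundant member per length, was at 22961, 24921 and 33028 FPKM under saline and 13569, 17412 and 19820.3 FPKM under Gly. It also separated the groups and changed by -0.61 ± 0.13 (SE, adjusted p = 0.000289). The copper-binding subunit mt-Co2 overlapped between groups, with 11302, 12432 and 17166 FPKM under saline and 8207, 9469 and 14007 FPKM under Gly, and its change was -0.40 ± 0.14 (SE, adjusted p = 0.0155). The third complex IV subunit, mt-Co3, overlapped too, with a change of -0.54 ± 0.13 (SE, adjusted p = 0.00086). In complex V the proton-channel subunit mt-Atp6 changed by -0.58 ± 0.12 (SE, adjusted p = 0.000178) and mt-Atp8 by -0.76 ± 0.18 (SE, adjusted p = 0.000704), with no overlap in either. Without any filter on low values limma called 4 of the 13, and after quantile normalization, which gives every library the same ranked values and so fixes the top ranks these transcripts hold, it called 1.

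**Figure D2:**
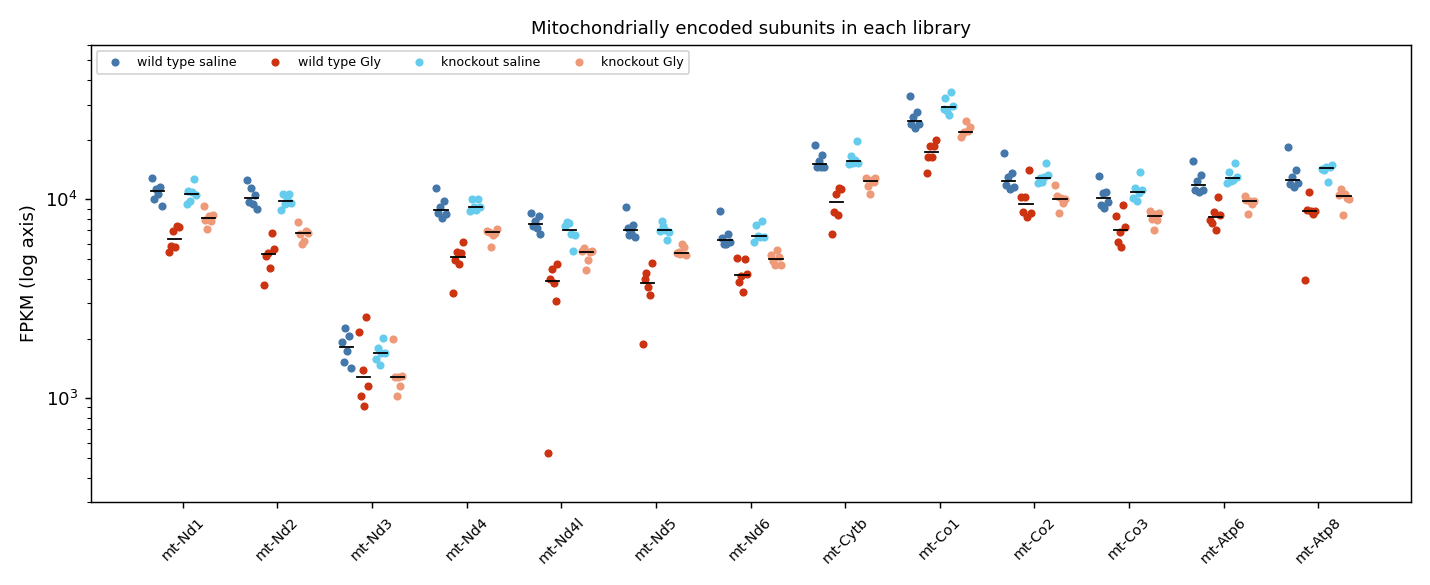
FPKM on a log axis for each of the 13 mitochondrially encoded subunits, with 1 point per library and the group median as a black line. In wild-type mice the Gly points (red) lie below the saline points (dark blue) for 10 subunits, mt-Nd3 overlaps between all groups, and the point for mt-Nd4l in wild-type Gly library 1 lies at 534 FPKM.

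The nuclear members of wild-type kidneys did not move in 1 direction. Of the 90 tested, 13 fell (14.4%, against 13.3% of all features) and 16 rose (17.8%, against 50.2%), and their median log2 change was 0.14. Counts by role follow, with roles assigned after values had been seen. Calls of a fall covered 3 of 7 core subunits of complex I, 3 of 4 of complex II, 2 of 3 core subunits of complex III and 2 of 5 subunits of the catalytic F1 part of complex V. Of 29 accessory subunits of complex I, 2 fell and 6 rose, none of the 5 accessory subunits of complex III was called, and 5 of 10 factors that assist assembly rose.

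In complex I, Ndufs1, the largest iron-sulfur subunit of the matrix arm, was at 101, 113 and 122 FPKM under saline and 56.1, 76.4 and 83.2 FPKM under Gly. All Gly libraries were below all saline libraries, and the log2 change was -0.60 ± 0.08 (SE, adjusted p = 3.89e-07). The core subunit Ndufv1, which carries the flavin that accepts electrons from NADH, was at 132, 143 and 152 FPKM under saline and 102, 109.9 and 166 FPKM under Gly. The groups overlapped through 1 high Gly library, number 1, and the change was -0.29 ± 0.09 (SE, adjusted p = 0.00668). The accessory subunits Ndufa9 and Ndufa10 fell by 0.23 and 0.43 on the log2 scale.

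Complex II, succinate dehydrogenase, links the respiratory chain to the tricarboxylic acid cycle. Its flavoprotein Sdha was at 259, 279 and 291 FPKM under saline and 165, 197 and 204 FPKM under Gly. The groups did not overlap, and the change was -0.54 ± 0.07 (SE, adjusted p = 1.38e-07). The iron-sulfur subunit Sdhb was at 209, 233 and 262 FPKM under saline and 148, 170.4 and 318 FPKM under Gly, where the top Gly value was library 1 and the other 5 lay under the saline range. Its change of -0.31 ± 0.12 (SE, adjusted p = 0.0284) became -0.46 ± 0.07 (SE, adjusted p = 4.31e-06) without library 1. Of the membrane anchors, Sdhc changed by -0.29 ± 0.06 (SE, adjusted p = 0.000355) and Sdhd, at 159, 173 and 184 FPKM under saline and 161, 171 and 223 FPKM under Gly, by 0.03 ± 0.07 (SE, adjusted p = 0.724), which was not called.

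Complex III core protein Uqcrc2 was at 183, 200.2 and 202 FPKM under saline and 132, 147 and 157 FPKM under Gly. It separated the groups and changed by -0.42 ± 0.05 (SE, adjusted p = 5.27e-07). Its partner Uqcrc1 was at 268, 290.3 and 304 FPKM under saline and 207, 216 and 302 FPKM under Gly and changed by -0.31 ± 0.07 (SE, adjusted p = 0.00074), with overlap through Gly library 1. The Rieske iron-sulfur protein Uqcrfs1 had a change of -0.20 ± 0.10 (SE, adjusted p = 0.0669), short of the threshold, and so had the accessory subunits Uqcrh (0.29 ± 0.14, adjusted p = 0.0738) and Uqcrq (0.19 ± 0.16, adjusted p = 0.309). In complex V the catalytic core subunits Atp5a1, at 760.3, 775 and 818 FPKM under saline and 570.3, 648 and 667 FPKM under Gly, and Atp5b changed by -0.30 ± 0.06 (SE, adjusted p = 0.000157) and -0.30 ± 0.07 (SE, adjusted p = 0.00104). Only Atp5a1 of this pair was free of overlap.

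**Figure D3:**
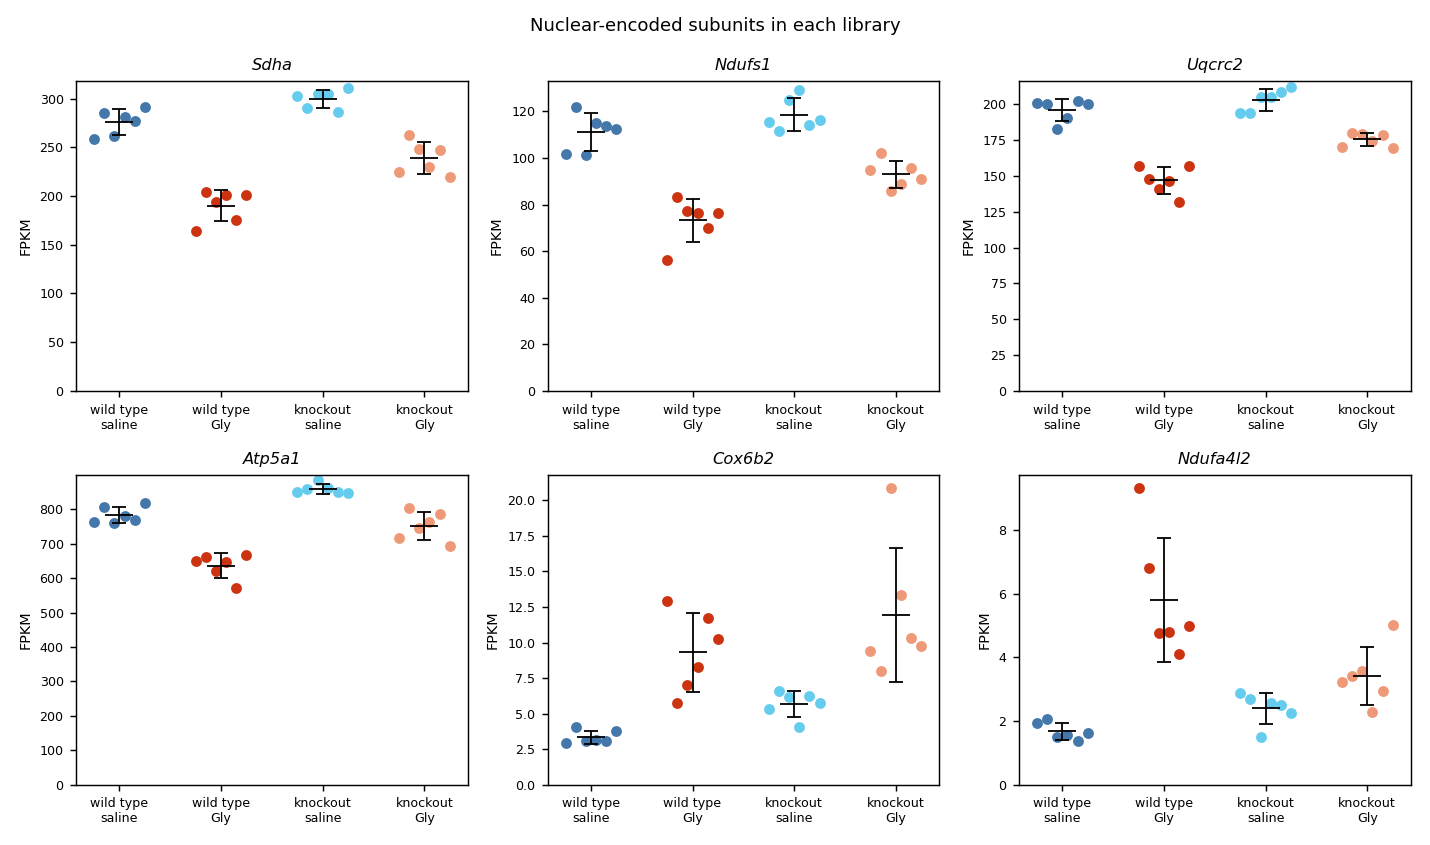
FPKM of 6 nuclear members in each library, with the group mean as a bar and 1 SD as whiskers (6 libraries per group). Sdha, Ndufs1, Uqcrc2 and Atp5a1 lie lower in both Gly groups than in the saline group of the same genotype, with wild-type Gly lowest, and Cox6b2 and Ndufa4l2 lie higher in wild-type Gly than in wild-type saline.

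Isoforms of complex IV subunits replace one another between tissues or with low oxygen. Ndufa4l2, a hypoxia-inducible relative of the complex IV subunit Ndufa4, was at 1.38, 1.60 and 2.05 FPKM under saline and 4.12, 4.90 and 9.33 FPKM under Gly. No Gly library overlapped the saline range, and the change was 1.30 ± 0.15 (SE, adjusted p = 6.05e-08). Ndufa4 was at 412, 444 and 484 FPKM under saline and 339, 406 and 836 FPKM under Gly and was not called (0.03 ± 0.15, adjusted p = 0.853). Cox6b2, the testis isoform of Cox6b, was at 2.94, 3.10 and 4.07 FPKM under saline and 5.76, 9.27 and 12.9 FPKM under Gly, again apart, with a change of 1.21 ± 0.18 (SE, adjusted p = 2.68e-06). Its ubiquitous counterpart Cox6b1, at 226, 245 and 268 FPKM under saline and 214, 258 and 516 FPKM under Gly, was not called (0.25 ± 0.14, adjusted p = 0.114). Per length, both isoforms stayed below their counterparts in every library.

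The muscle isoform Cox6a2 moved the other way, from 1.05, 1.45 and 2.15 FPKM under saline to 0.178, 0.354 and 0.518 FPKM under Gly, a change of -0.87 ± 0.12 (SE, adjusted p = 1.29e-06), while Cox6a1 was not called (0.13 ± 0.14, adjusted p = 0.431). At these levels the added pseudocount of 1 compresses the change. No wild-type Gly library reached the 1 FPKM of the filter, whereas every wild-type saline library did. Cox6a2 thus entered the test through libraries where it is high, so its fall, counted among the nuclear falls above, is a description only. The brown fat and muscle isoform Cox8b ranged from 0.178 to 5.02 FPKM in wild-type saline and from 1.13 to 11.4 in knockout saline, and was not called in any comparison. The brown fat marker Ucp1 ranged from 0.351 to 28.3 FPKM and from 0.217 to 55.4 FPKM in the same groups, and its part in the Cox8b values was not tested. Cox7a2l, counted above among the factors that assist assembly, rose without overlap, from 83.4, 85.1 and 88.2 to 106, 110.1 and 217 FPKM. Its change was 0.53 ± 0.13 (SE, adjusted p = 0.00101). Cox4i2, the lung isoform beside Cox4i1 (0.15 ± 0.13, adjusted p = 0.338), was below the filter, at 0.251, 0.508 and 0.827 FPKM under saline and 0.584, 0.818 and 1.15 FPKM under Gly. Without a filter it was not called in wild type (0.27 ± 0.11, adjusted p = 0.0715). It was lower in the knockout under Gly (-0.40 ± 0.11, adjusted p = 0.0214), and its response differed between genotypes (-0.58 ± 0.16, adjusted p = 0.0221). Being below the filter, Cox4i2 was not tested without the 5 knockout saline libraries low in Ddx3y. The remaining tested isoforms held no call in wild type: Cox7a1 had 0.08 ± 0.19, adjusted p = 0.736 beside Cox7a2 with 0.01 ± 0.13, adjusted p = 0.93, and Cox8a, the counterpart of Cox8b, had 0.09 ± 0.12, adjusted p = 0.53.

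Assembly factors of complex I, whose symbols begin with Ndufaf, are no part of the finished enzyme. Ndufaf2 was at 13.4, 15.1 and 16.9 FPKM under saline and 17.5, 20.7 and 45.4 FPKM under Gly and changed by 0.61 ± 0.16 (SE, adjusted p = 0.00186). Ndufaf5, which modifies an arginine of a core subunit, was at 6.84, 7.29 and 7.89 FPKM under saline and 8.14, 10.04 and 19.6 FPKM under Gly and changed by 0.53 ± 0.13 (SE, adjusted p = 0.000856). Neither overlapped between groups. Ndufaf8 and the methyltransferase Ndufaf7 changed by 0.51 and 0.32, whereas Ndufaf3 and Ndufaf4 had values of 0.20 and 0.06 and were not called. Of accessory subunits, Ndufa12, late to join the matrix arm, was at 51.5, 61.2 and 65.9 FPKM under saline and 51.5, 99.9 and 157 FPKM under Gly and changed by 0.65 ± 0.19 (SE, adjusted p = 0.00404) with overlap. Ndufa2, Ndufa3, Ndufb2, Ndufb6 and Ndufb7 rose by 0.40 to 0.50, Cox5a of complex IV by 0.33 and the ATP synthase members Atp5g2 by 0.39 and Atp5mpl by 0.40. Summed, the accessory subunits of complex I were at 2403, 2702 and 2904 FPKM under saline and 2264, 2692 and 5359 FPKM under Gly. The highest Gly sum belonged to library 1, and the medians were close.

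**Figure D4:**
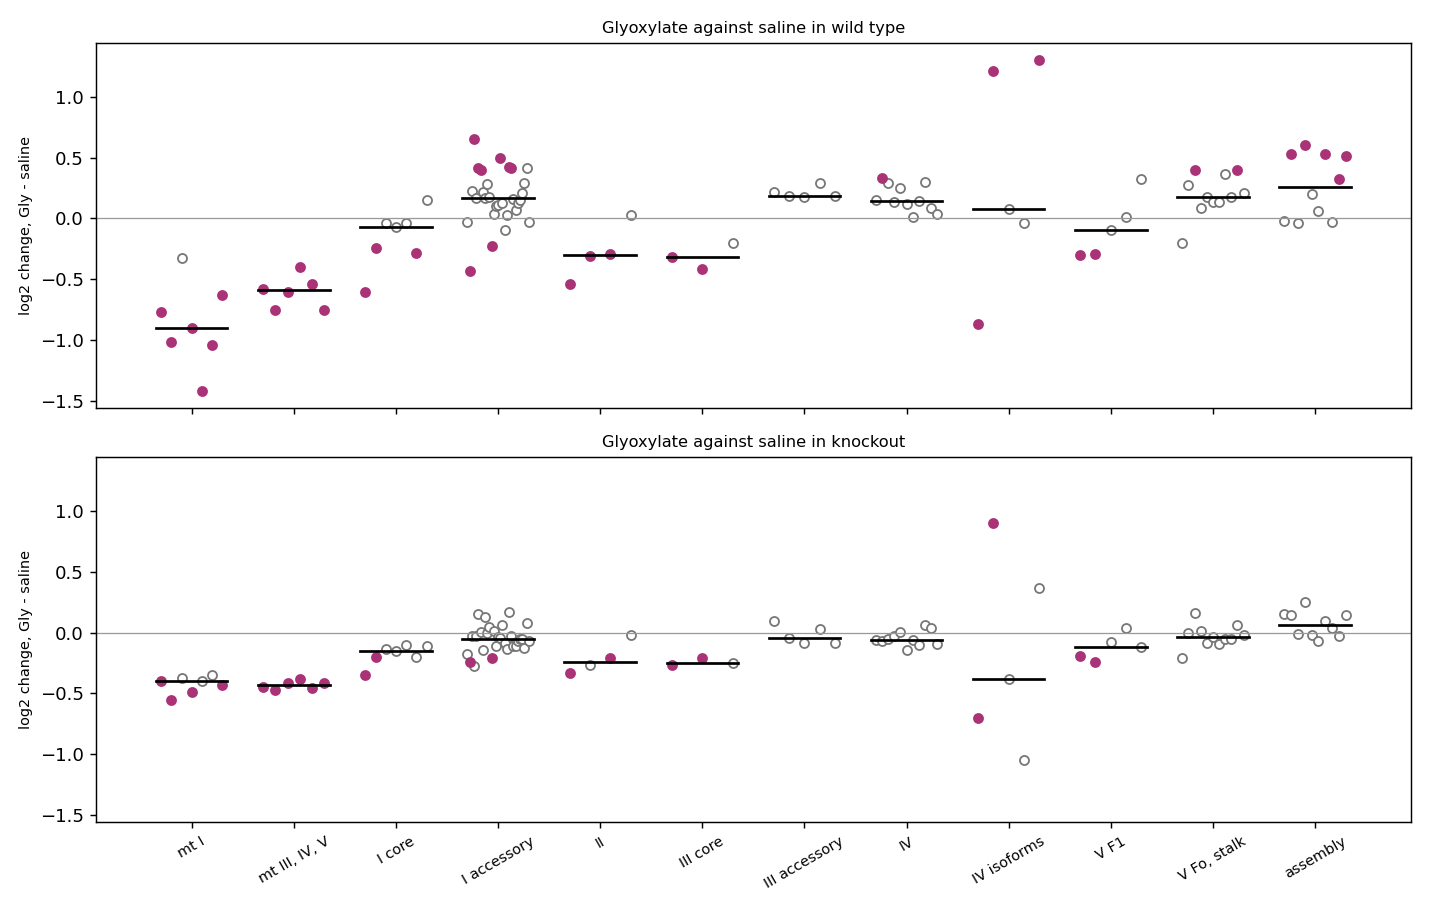
Log2 change with Gly (log2(FPKM + 1) scale) of each member past the filter, by genome, complex and role, in wild type (top) and knockout (bottom). Filled points passed adjusted p under 0.05 with limma, open points did not, and black lines are medians. In wild type the mitochondrial classes have the lowest medians, the core subunits of complexes II and III lie below 0 apart from Sdhd, and accessory subunits and assembly factors lie mostly above 0.

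Wild-type Gly library 1 had a large effect on the nuclear values. It held 25693 FPKM of nuclear members against 12599.9 to 17399 in the other 5. The gap was wider for short transcripts: the 41 nuclear members under 1000 bases (longest GENCODE M21 transcript) summed to 13685 FPKM in library 1, and the 49 longer ones to 12008, while wild-type saline libraries held 6190.3 to 7470.1 and 8013 to 8704 FPKM. Without library 1 the nuclear count in wild type became 22 lower and 12 higher (13.5% and 53.2% of all features), with calls in 6 of 7 core subunits of complex I and all 3 of complex III, and the mitochondrial count remained 12 of 13 lower. Ndufs3, Ndufs7, Ndufs8, Uqcrfs1, Atp5c1 and Atp5f1 were among the falls called only then. What set library 1 apart was not tested.

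Scaling moved the calls. All features had a median log2 change of 0.26 in wild type, and median-ratio scaling, which brings that median near 0, gave 23 nuclear falls and 2 rises, Ndufa4l2 (1.07) and Cox6b2 (0.95), with all 13 mitochondrial members lower (28.3% of all features lower, 29.0% higher). The rises of the accessory subunits and assembly factors were not called under that scaling, and Sdhd was then lower, at -0.28. Length went along with direction: of nuclear members under 1000 bases 1 fell and 8 rose, and of the longer ones 12 fell and 8 rose. Among all features 47 fell and 328 rose of 555 under 1000 bases, and 1486 fell and 6042 rose of 11776 longer ones. Over the 90 nuclear members the log2 change and transcript length had a Spearman correlation of -0.28, and over the 12331 features with a length it was -0.18, as a description in which members share the same libraries. The part of length in the result was not tested.

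Nuclear respiratory genes are known targets of NRF1, of the ETS factor GABP and of YY1, and the promoters of members that fell and that rose were searched for their words. The table of RefSeq promoters (GRCm38.p6, 250 bases before to 50 after each start) held 78 promoters of 73 nuclear members. The longer NRF1 word, which is GCATGCGC preceded by GC, stood on either strand in 7 of them (8.97%), against 1.93% of the promoters of all tested genes and 0.971% of all promoters. The shorter NRF1 word GCATGCGC, which overlaps every longer one, stood in 15.4% against 4.95% and 2.71%. CCGGAAG, the ETS word, stood in 23.1% against 17.0% and 8.86%, and the YY1 word AAGATGGCG in 10.3% against 2.93% and 1.40%. The nuclear receptor word AAGGTCA also stood in 10.3%, against 3.36% and 4.72%, in 0 of 7 promoters of members that fell and 1 of 13 of members that rose in wild type.

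The longer NRF1 word was present among members of both directions: 1 of the 7 promoters of members that fell in wild type held it, and 2 of the 13 promoters of members that rose. The 4 promoters printed next show this, with searched words in capitals: Uqcrc1 at chr9:108936398-108936697 (plus strand) and Sdhb at chr4:140961021-140961320 (plus strand) fell, and Atp5g2 at chr15:102670998-102671297 (minus strand) and Ndufaf5 at chr2:140170396-140170695 (plus strand) rose. Uqcrc1, Atp5g2 and Ndufaf5 carry the longer NRF1 word, and Sdhb carries the shorter one and the ETS word. A match is a description of the letters and shows no binding.
Uqcrc1: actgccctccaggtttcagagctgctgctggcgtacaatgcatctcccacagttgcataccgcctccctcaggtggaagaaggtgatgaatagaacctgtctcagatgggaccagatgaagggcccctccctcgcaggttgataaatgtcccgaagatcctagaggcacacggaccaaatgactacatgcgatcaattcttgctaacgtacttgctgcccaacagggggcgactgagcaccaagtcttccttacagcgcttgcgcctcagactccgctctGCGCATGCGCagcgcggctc
Sdhb: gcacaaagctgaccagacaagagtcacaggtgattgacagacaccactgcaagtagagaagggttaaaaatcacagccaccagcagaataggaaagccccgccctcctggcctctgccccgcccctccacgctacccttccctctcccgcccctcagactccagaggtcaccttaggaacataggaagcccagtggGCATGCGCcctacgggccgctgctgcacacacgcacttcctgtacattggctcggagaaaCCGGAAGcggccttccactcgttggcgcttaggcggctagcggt
Atp5g2: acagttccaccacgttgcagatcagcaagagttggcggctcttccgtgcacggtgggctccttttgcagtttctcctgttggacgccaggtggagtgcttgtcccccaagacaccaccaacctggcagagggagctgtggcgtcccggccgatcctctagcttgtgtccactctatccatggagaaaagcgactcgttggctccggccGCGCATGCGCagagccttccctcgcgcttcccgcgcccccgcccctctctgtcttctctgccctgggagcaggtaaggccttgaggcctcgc
Ndufaf5: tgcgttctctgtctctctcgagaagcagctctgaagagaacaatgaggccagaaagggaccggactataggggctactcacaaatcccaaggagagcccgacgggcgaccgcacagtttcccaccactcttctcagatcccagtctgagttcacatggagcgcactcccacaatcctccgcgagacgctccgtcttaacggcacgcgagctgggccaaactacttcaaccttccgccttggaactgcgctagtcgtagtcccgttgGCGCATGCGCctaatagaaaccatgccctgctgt

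The same comparison was made in the knockout. All 13 mitochondrial members had negative values, 10 fell, and the median log2 change was -0.42, where 5.72% of all features were called lower and 23.7% higher. The nuclear members showed 11 falls and 1 rise of 90, with a median of -0.06 against 0.12 for all features. The 11 nuclear falls were all among the 13 of wild type, the other 2 being Ndufv1 and Sdhb, and the 10 mitochondrial falls were among the 12 of wild type, the other 2 being mt-Nd4l and mt-Nd5. Of the 16 nuclear rises of wild type, Cox6b2 was the 1 called here.

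The knockout values of mt-Nd2 were 8835, 9795 and 10626 FPKM under saline and 5989.8, 6754 and 7665 FPKM under Gly. The groups were apart, and the change was -0.55 ± 0.13 (SE, adjusted p = 0.00188). For mt-Co1 they were 26529, 29009 and 34565 FPKM under saline and 20687, 21893 and 24850.0 FPKM under Gly, also apart, with a change of -0.42 ± 0.13 (SE, adjusted p = 0.0186). For mt-Nd5 they were 6237, 6994 and 7766 FPKM under saline and 5267, 5388 and 6001 FPKM under Gly, apart as well, but the change of -0.35 ± 0.16 (SE, adjusted p = 0.098) did not pass the threshold. With no filter, and likewise after quantile normalization, limma called 0 of the 13, and 0 had an unadjusted p under 0.05. In all, 11 mitochondrial members had no overlap between these groups, as had 2.1% of all features in that direction.

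Sdha was at 286, 303 and 311 FPKM under saline and 219.7, 239 and 263 FPKM under Gly in the knockout, without overlap, and changed by -0.33 ± 0.07 (SE, adjusted p = 0.00047). Ndufs1 was at 112, 116 and 129 FPKM under saline and 85.7, 92.9 and 102 FPKM under Gly and changed by -0.35 ± 0.08 (SE, adjusted p = 0.00156). Uqcrc2, at 194, 205 and 212 FPKM under saline and 169.6, 177 and 180.1 FPKM under Gly, changed by -0.21 ± 0.05 (SE, adjusted p = 0.00562), and neither of these overlapped between groups. Cox6b2 rose from 4.07, 5.95 and 6.56 to 8.0, 10.04 and 20.9 FPKM, a change of 0.90 ± 0.18 (SE, adjusted p = 0.000484), and Ndufa4l2 had a change of 0.36 ± 0.15 (SE, adjusted p = 0.07). Without the 5 saline libraries low in Ddx3y, which leaves 1 saline library whose spread is assumed to equal that of the other groups, none of the mitochondrial members and 1 nuclear member, Cox6b2 (1.29), were called by limma, where 5.69% of all features were, and 1 mitochondrial member had an unadjusted p under 0.05. The median change of the mitochondrial members was then -0.37, with -0.58 ± 0.27 (SE, adjusted p = 0.208) for mt-Nd2, and Sdha had -0.35 ± 0.14 (SE, adjusted p = 0.139) and Ndufs1 -0.47 ± 0.16 (SE, adjusted p = 0.0882). The 1 saline library left, number 4, held 142565 FPKM of mitochondrial members at a ratio of 8.72, above all knockout Gly libraries in both. Of other lists in this comparison, limma without the 5 called 0 of 20 tricarboxylic acid cycle genes (5 at an unadjusted p under 0.05), 0 of 25 genes of genome maintenance and expression (0 unadjusted), 0 of 12 proximal tubule markers (4 unadjusted) and 0 of 5 erythroid markers (5 unadjusted). It called 1 of 4 distal convoluted tubule markers, lower, 7 of 9 macrophage markers, all higher, and all 5 of both the fibroblast and the tubule injury markers, higher. Leaving out wild-type Gly library 1, which enters only through the shared variance, gave 12 mitochondrial and 15 nuclear falls (6.94% of all features).

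Under Gly the genotypes were compared directly. Mitochondrial transcripts were higher in the knockout for 7 of 13 members, with a median log2 difference of 0.36, where 8.37% of all features were higher and 21.4% lower. The 7 were mt-Nd1, mt-Nd2, mt-Nd4, mt-Nd4l, mt-Nd5, mt-Cytb and mt-Co1, so 5 belong to complex I. Of the nuclear members 4 were higher and 2 lower of 90, with a median of -0.12, and those higher were 1 each from complexes I, II, III and V.

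The values of mt-Nd5 were 1884, 3809 and 4797 FPKM in wild-type Gly and 5267, 5388 and 6001 FPKM in knockout Gly. These groups did not overlap, and the difference was 0.65 ± 0.16 (SE, adjusted p = 0.00305). For mt-Co1 they were 13569, 17412 and 19820.3 FPKM in wild-type Gly and 20687, 21893 and 24850.0 FPKM in knockout Gly, also apart, with a difference of 0.39 ± 0.13 (SE, adjusted p = 0.0288). The other 5 overlapped, and the estimate of mt-Nd4l went from 0.88 to 0.40 without wild-type Gly library 1. The mitochondrial count was not firm: fitted on these 2 groups alone limma called 1 of the 13, without the 5 knockout saline libraries low in Ddx3y, which enter through the shared variance, 2, and without any filter 0, with 2 under an unadjusted p of 0.05.

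Sdha was at 165, 197 and 204 FPKM in wild-type Gly and 219.7, 239 and 263 FPKM in knockout Gly, a difference of 0.33 ± 0.07 (SE, adjusted p = 0.000607). Ndufs1 was at 56.1, 76.4 and 83.2 FPKM in wild-type Gly and 85.7, 92.9 and 102 FPKM in knockout Gly, with 0.35 ± 0.08 (SE, adjusted p = 0.00176). For Uqcrc2 (132, 147 and 157 FPKM in wild-type Gly and 169.6, 177 and 180.1 FPKM in knockout Gly) the difference was 0.26 ± 0.05 (SE, adjusted p = 0.00125), and for Atp5a1 it was 0.24 ± 0.06 (SE, adjusted p = 0.00481). In all 4 each knockout library lay above each wild-type library, as in 2.4% of all features. Lower in the knockout were Ndufa4l2, at 4.12, 4.90 and 9.33 FPKM in wild-type Gly and 2.29, 3.33 and 5.02 FPKM in knockout Gly (-0.60 ± 0.15, adjusted p = 0.00404), and the assembly factor Ndufaf2, at 17.5, 20.7 and 45.4 FPKM in wild-type Gly and 12.7, 14.5 and 17.98 FPKM in knockout Gly (-0.63 ± 0.16, adjusted p = 0.00458), both with overlap.

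The nuclear count of this comparison depended on single libraries. Without wild-type Gly library 2 it was 4 higher and 11 lower of 90. With all libraries 8.37% of all features were higher and 21.4% lower, and the share without library 2 is not given here. Without wild-type Gly library 1 instead, 16 nuclear members were higher and 2 lower (8.33% and 22.2% of all features). The 16 covered all 3 core subunits of complex III (Uqcrc1 0.21, Uqcrc2 0.28, Uqcrfs1 0.30), 3 of 4 subunits of complex II (Sdha 0.29, Sdhb 0.27, Sdhc 0.14) and 3 of 5 of F1 (Atp5a1 0.25, Atp5b 0.17, Atp5c1 0.21). Mitochondrial members higher were 7 again, with mt-Nd6 called and mt-Cytb not.

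**Figure D5:**
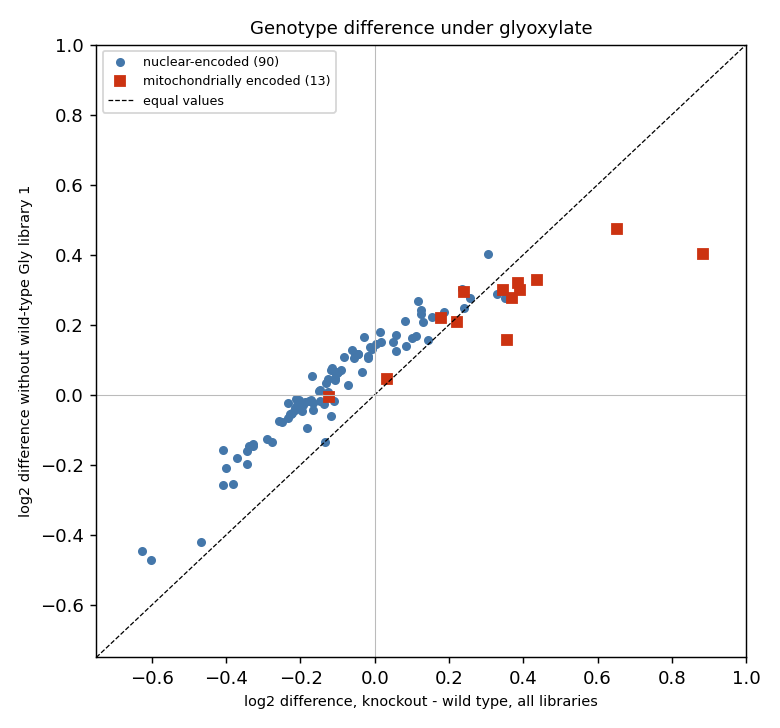
Log2 difference between knockout and wild type under Gly for each member, with all libraries (horizontal) and without wild-type Gly library 1 (vertical), and the dashed line marks equal values. Most nuclear members lie above the line, so their values were higher without that library, and the values of mt-Nd4l and mt-Nd5 were lower without it.

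Under saline few members were called between the genotypes. None of the 13 mitochondrial members was called by limma (10.6% of all features were called), and their log2 differences ran from -0.15 to 0.20. At an unadjusted p under 0.05 the count was also 0. Of the nuclear members Cox6b2 (0.61 ± 0.18, adjusted p = 0.0291) and Cox5a (0.38 ± 0.12, adjusted p = 0.0497), a subunit that binds regulators of complex IV, were higher in the knockout, both with overlap, where 6.92% of all features were higher. In 5 nuclear members that were not called (Atp5a1, Cox7a2l, Ndufa9, Ndufaf5 and Ndufb8, adjusted p from 0.175 to 0.314) every knockout library lay above every wild-type library, as in 3.94% of all features, and so did the summed core subunits of complex III (ratio of means 1.10). No member was called without the 5 libraries low in Ddx3y, nor was any other feature (0.0%), and 101 of all features, 2 of them nuclear members, had an unadjusted p under 0.05.

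The difference between the 2 genotypes in their response to Gly was tested directly. It was called for 4 members, where 26.6% of all features were called. Knockout minus wild-type change was -0.94 ± 0.21 (SE, adjusted p = 0.00244) for Ndufa4l2, -0.92 ± 0.27 (SE, adjusted p = 0.0129) for Ndufa12 and -0.35 ± 0.12 (SE, adjusted p = 0.0339) for Ndufaf7, so all 3 had a lower change in the knockout. For mt-Nd5 the change was less negative in the knockout, with a difference of 0.69 ± 0.22 (SE, adjusted p = 0.0232), and the other 12 mitochondrial members were not called. Ndufa12 was at 51.5, 61.2 and 65.9 FPKM in wild-type saline, 51.5, 99.9 and 157 FPKM in wild-type Gly, 56.1, 80.7 and 117 FPKM in knockout saline and 60.0, 67.1 and 75.8 FPKM in knockout Gly, so it varied most in wild-type Gly, and all 4 groups overlapped. No member was called by limma without the 5 libraries low in Ddx3y, when 0.0768% of all features were, and 2 nuclear members had an unadjusted p under 0.05.

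Knockout Gly against wild-type saline, which sets the treated knockout beside untreated wild type, had 9 of 13 mitochondrial members lower (6.72% of all features) and 9 nuclear members lower and 6 higher (38.9% of all features higher). These comparisons share control or treated libraries with the previous ones. Here mt-Nd2 had a difference of -0.63 ± 0.13 (SE, adjusted p = 0.000346), Sdha -0.21 ± 0.07 (SE, adjusted p = 0.0119) and Cox6b2 1.52 ± 0.18 (SE, adjusted p = 4.62e-07).

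Other genes of the pathway were read from lists of symbols, beside the 50.2% of all features that rose and the 13.3% that fell in wild type. Of 40 genes of oxidative phosphorylation outside the name rule, largely assembly factors, 13 rose and 7 fell with Gly in wild type (median 0.12). The complex III assembly factor Uqcc2 rose from 19.6 ± 2.73 to 46.3 ± 22.2 FPKM (mean ± SD, n = 6), with a log2 change of 1.10 ± 0.17 (SE, adjusted p = 4.53e-06). The copper chaperone Sco2 (0.60) and Bcs1l, which inserts the Rieske protein (0.42), also rose. Acad9, a complex I assembly factor and acyl-CoA dehydrogenase, fell from 24.7 ± 3.03 to 13.8 ± 0.719 FPKM (-0.79 ± 0.08, adjusted p = 6.44e-09), and Cox15, of haem A synthesis, fell by 0.58.

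Genes that maintain and express the mitochondrial genome were mixed, with 6 of 25 higher and 4 lower in wild type. Tfam, which packages mitochondrial DNA and starts its transcription, went from 11.9 ± 0.678 to 9.77 ± 1.45 FPKM, a change of -0.27 ± 0.07 (SE, adjusted p = 0.00246). The transcription factor Tfb2m fell by 0.32 and Polg2, the accessory subunit of the mitochondrial DNA polymerase, by 0.48. The RNase Rnaseh1 (0.46) and the single-strand binding protein Ssbp1 (0.39) rose. In the knockout 1 of the 25 was called, Tfb2m (-0.18 ± 0.06, adjusted p = 0.0314).

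Of 13 regulators of mitochondrial biogenesis, 4 rose and 3 fell in wild type. Pprc1, a coactivator of the PGC-1 family, changed by 1.11 ± 0.12 (SE, adjusted p = 2.56e-08) and Nrf1 by 0.53 ± 0.07 (SE, adjusted p = 1.2e-06), while the fatty acid oxidation regulator Ppara changed by -1.13 ± 0.30 (SE, adjusted p = 0.00214) and the estrogen-related receptor Esrrb by -0.83. Ppargc1a, encoding PGC-1alpha, was at 10.3 ± 0.797 FPKM under saline and 9.49 ± 2.95 under Gly and was not called (-0.16 ± 0.17, adjusted p = 0.422). Under Gly it was higher in the knockout, at 13.9 ± 3.31 FPKM (0.53 ± 0.17, adjusted p = 0.0194).

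Tricarboxylic acid cycle genes, including pyruvate dehydrogenase and its kinases, fell with Gly in wild type in 16 of 20 (1 higher), with a median of -0.46. The kinase Pdk4, which restrains pyruvate dehydrogenase, changed by -2.90 ± 0.32 (SE, adjusted p = 3.31e-08). In the knockout 10 of 20 fell (5.72% of all features), with a median of -0.19. Under Gly 15 of 20 were higher in the knockout than in wild type (8.37% of all features), with a median of 0.26. Mitochondrial import and membrane genes were again mixed, with 8 of 24 higher and 6 lower in wild type.

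Cell type markers moved with the same comparisons. Over all features 50.2% rose and 13.3% fell with Gly in wild type, and 23.7% rose and 5.72% fell in the knockout. Under Gly 8.37% were higher and 21.4% lower in the knockout than in wild type, and under saline 6.92% were higher. Of 12 proximal tubule markers 9 fell with Gly in wild type, and their summed level was 22510.2 to 27319.7 FPKM in wild-type saline, 5654 to 10860.2 in wild-type Gly, 11244 to 25778 in knockout saline and 4155 to 17534 in knockout Gly. The sum includes Kap and Slc7a13, which depend on sex in the mouse. Without both, an alternative sum chosen after the values were seen, the ranges were 4587 to 5289.6, 2058 to 3079.8, 4178 to 5207 and 3174 to 4657 FPKM in the same order. With all knockout saline libraries, 3 of the 12 fell with Gly in the knockout and 2 rose. Under Gly 7 of the 12 were higher in the knockout than in wild type. All 9 macrophage markers rose in wild type, with sums of 36.3 to 63.3, 273 to 787, 38.3 to 77.0 and 142 to 423 FPKM, and all 9 were lower in the knockout under Gly. Distal convoluted tubule markers fell in 4 of 4 in both genotypes, with sums of 200.2 to 286 FPKM in wild-type saline, 103 to 166 in wild-type Gly, 265 to 500.3 in knockout saline and 112 to 235 in knockout Gly. Fibroblast markers rose in 5 of 5 in both genotypes (15.9 to 25.4, 116 to 304, 22.7 to 29.6 and 86.4 to 242 FPKM in the same order), and so did 5 of 5 tubule injury markers (457 to 616, 8296 to 11721, 595 to 1350.5 and 4072 to 7439 FPKM). Under Gly 4 of 5 of each of these 2 lists were lower in the knockout. Erythroid markers fell in 5 of 5 in both genotypes, with sums of 401 to 2621, 78.6 to 597, 679 to 4106 and 66.4 to 655 FPKM. Under saline 4 of 5 podocyte and 3 of 6 endothelial markers were higher in the knockout, with median log2 differences of 0.59 and 0.47. Without the 5 libraries low in Ddx3y, which leaves 1 knockout saline library, these medians were 0.13 and 0.03. No listed proximal tubule or macrophage marker was at 0 in a whole group. The part of these cell types in the mitochondrial and nuclear values was not tested.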

How the data were processed

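RNA from 24 whole mouse kidneys was extracted with Trizol and prepared with TruSeq kits, per the labels' protocols. The authors deposited 1 table of FPKM values with 28450 rows. The submitters' processing notes name Bowtie 0.12.2 and the builds mm8 and mm9, while the FPKM program, the use of strand and the read depth are not given there. At low levels no more than 2.55% of ratios between libraries shared 1 value, so whole reads could not be recovered and the depth is unknown. A total FPKM of 439749 to 539018 per library is no measure of depth.

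A feature was tested if 6 or more libraries had 1 FPKM or more, on log2(FPKM + 1) with limma 3.58.1 (intensity trend, R 4.3.3), with 1 mean per group over all 24 libraries and Benjamini-Hochberg adjustment over 13020 features, called under 0.05. A fold on this scale understates the change of low features. The procedure was tested on simulated data with independent normal noise. Those data held no outlying library and no mixed group, so that test does not reach the dependence on single libraries. All 107 member identifiers matched the names table. Members and lists were chosen with earlier results of these data known, and roles were assigned after values were seen. Named were all mitochondrially encoded members, complex II, in each of complexes I, III, IV and V the nuclear subunits with the smallest p in wild type (4) and between genotypes under Gly (3), the 4 assembly factors with the smallest p, isoform pairs, members called against the majority of their genome, and members called in the interaction or between genotypes under saline. Some genes that this rule picks are not reported here. Sums and ratios have no test. Alternatives were another pseudocount (0.1), no filter, a filter of 5 FPKM, median-ratio, quantile and non-mitochondrial scaling, a replicate block, library weights, a fit on the compared groups alone, leaving out each library, and leaving out the knockout saline libraries low in Ddx3y. Promoters are from RefSeq (GRCm38.p6) and lengths from GENCODE M21. Atp5o has 2 rows, and members with near-identical copies elsewhere in the genome may share reads with them. Tools were Python 3.11.15, pandas 2.3.3 and matplotlib 3.10.9.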

Additional observations from a re-analysis of the deposited data

Results flagged for a closer look

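In groups of 6 libraries the highest or lowest library was set against the others with Dixon's criterion, which chance meets in about 1 in 20 groups. It was met in 20 of the 112 groups tested. Wild-type Gly library 1 accounted for the nuclear ones most often: its nuclear sum was 25692.7 FPKM, with 6512.28 in complex I, 788.079 in complex II, 7850.1 in complex V and 431.087 in assembly factors, and its Sdhb was at 317.943 FPKM, each the highest of its group. The same library had the lowest ratio of mitochondrial to nuclear sums, 2.83717, and the lowest mt-Atp8, 3925.14 FPKM. In wild-type Gly library 5, mt-Co2 was highest, at 14007.1 FPKM.

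Knockout Gly library 3 had the lowest mitochondrial sum of its group, 99101.3 FPKM, the lowest mitochondrial complex V sum, 16763.4, and the lowest mt-Nd4, 5744.96. Knockout Gly library 1 had the highest mt-Nd3, 1998.95 FPKM, and library 6 the lowest nuclear complex V sum, 4655.17 FPKM. Among knockout saline libraries, number 5 had the highest mt-Cytb, which is also the complex III sum, at 19692.5 FPKM, and number 4, the one with Ddx3y, had the lowest mt-Atp8, 12288.6 FPKM. Wild-type saline library 1 had the highest mt-Nd5, 9181.39 FPKM, and mt-Nd6, 8769.01, and library 5 the lowest nuclear complex I sum, 3243.29.

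The response to Gly differed between genotypes for 4 members in the test of the difference itself, given as knockout minus wild type on the log2 scale: Ndufa4l2 (-0.94), Ndufa12 (-0.92), Ndufaf7 (-0.35) and mt-Nd5 (0.69). None of the 4 passed without the 5 knockout saline libraries low in Ddx3y.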

How the results depend on the processing

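Depth is unknown, so no counting error can be given, and the pseudocount sets how far values near 1 FPKM can move. Of 130 counts and ratios recomputed under alternatives that keep every library of a group or drop the libraries low in Ddx3y, 38 moved, and the cause was not tested except where the text names the construction. The member counts below, for these alternatives and for single libraries left out, stand without the share of all features called under the same setting. They therefore do not show whether a setting moved calls of the members in particular or of all features. In wild type the count of mitochondrial members called with Gly went from 12 to 4 with no filter and 1 with quantile normalization. For the knockout response the nuclear count became 22 with library weights and 1 without the saline libraries low in Ddx3y, and the mitochondrial count became 0 with no filter, 0 with quantile normalization and 0 without those libraries.

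Between genotypes under saline the nuclear count of 2 became 0 with no filter, 1 with median-ratio scaling, 6 with quantile normalization, 5 with non-mitochondrial scaling, 25 with library weights, 10 with the 2 groups alone and 0 without the libraries low in Ddx3y. With no filter 11 nuclear members had an unadjusted p under 0.05. Under Gly the nuclear count of 6 became 20 with quantile normalization, 14 with non-mitochondrial scaling and 23 with library weights, and the mitochondrial count of 7 became 0 with no filter, 3 with quantile normalization, 1 with the 2 groups alone and 2 without the libraries low in Ddx3y. In the test of the difference in response the nuclear count of 3 became 5 with median-ratio scaling, 6 with quantile normalization, 6 with non-mitochondrial scaling, 16 with library weights and 0 without the libraries low in Ddx3y. The mitochondrial count of 1 became 0 with no filter, 4 with a filter of 5 FPKM, 2 with median-ratio scaling, 0 with quantile normalization, 5 with library weights and 0 without those libraries. For knockout Gly against wild-type saline the nuclear count became 27 with library weights and 27 with the 2 groups alone, and the mitochondrial count 0 with no filter and 0 with quantile normalization.

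Leaving out 1 library at a time gave, in wild type, 24 to 37 nuclear and 11 to 13 mitochondrial calls. In the knockout response the ranges were 9 to 18 and 7 to 12. Between genotypes under saline they were 0 to 6 and 0 to 0, and under Gly 6 to 18 and 4 to 7, where 18 (16 higher, 2 lower) came without wild-type Gly library 1, 15 (4 higher, 11 lower) without wild-type Gly library 2, and 4 without wild-type Gly library 4 or knockout Gly libraries 1 or 4. For the difference in response they were 2 to 5, with 5 without wild-type Gly libraries 1 or 2, and 1 to 2. For knockout Gly against wild-type saline they were 10 to 23, the latter without wild-type Gly library 1, and 4 to 12, with 4 without wild-type saline library 1 and 5 without knockout Gly library 3. The log2 difference of the ratio of sums ranged from -0.81 to -0.55 in wild type, from -0.37 to -0.31 in the knockout, from -0.07 to 0.05 between genotypes under saline and from 0.19 to 0.44 under Gly, 0.19 being without wild-type Gly library 1. It ranged from 0.21 to 0.47 for the difference in response and from -0.41 to -0.29 for knockout Gly against wild-type saline.

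Signs turned for single genes as follows. In wild type Cox7a2 was -0.19 with library weights and -0.16 to 0.066 when 1 library was left out, negative without wild-type Gly library 1, Ndufa4 -0.20 with library weights, Ndufaf4 -0.27 with quantile normalization, Sdhd -0.28 with median-ratio scaling, mt-Co2 0.11 and mt-Co3 0.13 with quantile normalization. In the knockout quantile normalization gave Atp5b 0.024, mt-Nd4 0.033 and mt-Nd6 0.029. Under Gly it gave Cox8a 0.21 between genotypes. For knockout Gly against wild-type saline it gave Atp5b 0.041, mt-Co3 0.095, mt-Cytb 0.072, mt-Nd4 0.064, mt-Nd5 0.13 and mt-Nd6 0.017, and median-ratio scaling gave Ndufaf7 -0.028.

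The replicate numbers of the labels do not show a pairing. Over 36 pairs of same-numbered libraries in different groups the deviations correlated at -0.369 to 0.303, and 7 pairs were over 0.1. In 4 of the 36 pairs the library of 1 group matched its own number best in the other group. A replicate block moved the nuclear count between genotypes under saline to 0, with 9 at an unadjusted p under 0.05, and the mitochondrial count under Gly to 4. Over the single genes in each comparison, called or not, 306 values stayed on the same side of the threshold with the block, 11 no longer passed it and 1 newly passed it.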
